A study of Saccharomyces cerevisiae with 20 samples.

Results

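Transcript levels during mid-exponential growth on glucose were compared between aerobic and anaerobic batch cultures of Saccharomyces cerevisiae, across all genes on the array. The comparison rests on 4 of the 20 arrays of the series, chosen by their labels alone: 2 arrays of aerobic cultures and 2 of anaerobic cultures, each pair numbered 1 and 2. The other arrays follow the same kinds of culture through late exponential phase and, for the aerobic cultures, the diauxic shift and post-diauxic growth, into stationary phase (SP), since the study asked how oxygen affects the survival of non-growing yeast.

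Every culture was of the haploid laboratory strain CEN.PK113-7D (MATa MAL2-8C SUC2), grown in a bioreactor at 30 °C and pH 5.0 on 20 g/L glucose. The aerobic cultures were sparged with air and kept above 40% dissolved oxygen. The anaerobic cultures were sparged with nitrogen holding less than 10 ppm oxygen, and their medium also held 10 mg/L ergosterol and 420 mg/L Tween 80, a detergent that supplies oleic acid, both dissolved in ethanol. Yeast needs oxygen to make sterols and unsaturated fatty acids. The aerobic medium held neither, so an effect of oxygen and an effect of these supplements cannot be told apart in this comparison. The growth rates of both kinds of culture were not matched, as they would be in a chemostat.

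Budding yeast ferments glucose whether or not oxygen is present, and high glucose represses many genes of respiration. Oxygen acts on transcription largely through heme and sterols, whose synthesis consumes it. With heme present, the activator Hap1 and the Hap2/3/4/5 complex drive genes of respiration, and Hap1 also drives ROX1, whose product represses hypoxic genes. When sterols run low, Upc2 and Ecm22 activate genes of sterol uptake and synthesis and of the anaerobic cell wall. Several proteins exist as an aerobic and a hypoxic isoform encoded by separate genes. High-affinity iron uptake, which the activator Aft1 controls, itself needs oxygen, because the oxidase Fet3 uses it to oxidise iron.

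The strain label was checked against mating-type genes on the 4 arrays. The a-pheromone genes MFA1 and MFA2 gave signals of 1628.8 to 4208.0, whereas the 3 alpha-specific genes tested were lower: the receptor gene STE3 gave 8.8 to 17.3, SAG1 gave 34.6 to 46.3 and MF(ALPHA)1 gave 16 to 84.1. The signals are linear and were scaled by the authors to a common average, so a level is relative to the whole array, and fewer cells with a transcript and less of it per cell cannot be told apart. Between 2725 and 2822 features lay below a signal of 12 on these arrays, and signals below 12 were set to 12 before log2 values were taken.

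The 2 aerobic mid-exponential arrays were not alike, and this touches many of the results. Over the 6067 probe sets tested (a probe set is the group of array probes for 1 transcript), the 2 anaerobic arrays correlated at r = 0.993 on the log2 scale and the 2 aerobic arrays at 0.963. Between the aerobic arrays 534 probe sets differed by at least 2-fold, against 29 between the anaerobic arrays. Of these 534, 410 were higher on array 1. The array labelled aerobic mid-exponential replicate 1 correlated more closely with the aerobic late exponential arrays, at 0.98 with replicate 1 and 0.988 with replicate 2, than with its own replicate. The array labelled aerobic mid-exponential replicate 2 correlated at 0.986 with aerobic late exponential replicate 1.

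The genes that set the 2 aerobic arrays apart include well-known reporters of glucose. HXT1, a low-affinity glucose transporter made at high glucose, gave signals of 33.1 and 1117.7 on aerobic arrays 1 and 2, against 1140.9 and 1012.9 on the anaerobic arrays. HXK1, a hexokinase that glucose represses, gave 6015.2 and 264.7 in aerobic cultures, against 576.2 and 778.6 in anaerobic cultures. SUC2, the glucose-repressed invertase, gave 666.9 and 139.9 in aerobic cultures, against 174.5 and 171.2 in anaerobic cultures. Aerobic array 2 lay near the anaerobic arrays for HXT1 and SUC2 and below both of them for HXK1, while aerobic array 1 lay far from them for all 3. On the aerobic late exponential arrays HXT1 was at 36.8 and 24.7 and HXK1 at 990.3 and 5894.0, so for HXT1 array 1 resembled both late arrays, and for HXK1 it resembled the second one.

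**Figure D1:**
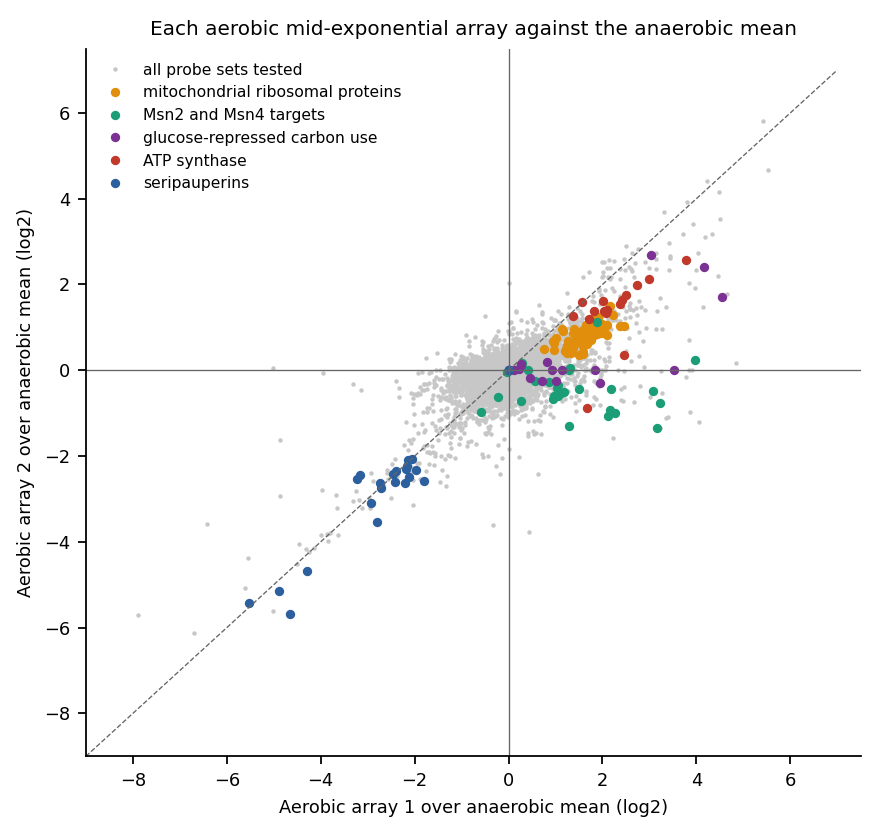
Log2 ratio of each aerobic mid-exponential array to the mean of the 2 anaerobic mid-exponential arrays, with array 1 on the horizontal axis and array 2 on the vertical axis, for the 6067 probe sets tested (grey) and 5 gene groups (colours). Seripauperins lie near the dashed line of equal ratios, ATP synthase and mitochondrial ribosomal genes lie mostly above 0 on both arrays but higher on array 1, and most Msn2 and Msn4 targets are above 0 on array 1 and below it on array 2.

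Whether the sampling time, the remaining glucose, an exchange of labels between aerobic mid- and late exponential arrays or something else separated the 2 aerobic arrays was not tested, and an exchange would change what the aerobic mid-exponential values stand for. Both labels were kept as given. Values from fits that left out an array are given beside many of the results below.

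A limited part of the transcriptome differed between aerobic and anaerobic cultures during growth. A gene was called when its difference had an adjusted p below 0.05 and reached 2-fold. Of 5266 genes tested, 295 (5.60%) were called higher in aerobic cultures and 127 (2.41%) higher in anaerobic cultures. The calls rest on a spread estimated over all 20 arrays: fitted on the 4 mid-exponential arrays alone, 10 probe sets were called higher in aerobic and 17 in anaerobic cultures. Counted by probe set, 308 of 6067 (5.08%) were higher in aerobic cultures and 175 (2.88%) in anaerobic cultures. At an unadjusted p below 0.05 there were 1401. Counted by probe set, the anaerobic changes were fewer but larger: 16 probe sets were at least 16-fold higher in anaerobic cultures, against 5 in aerobic cultures. The 175 include 21 probe sets of the seripauperins and 10 of the Ty4 retrotransposon, both with near-identical copies. The sizes are thus not those of separate genes. The median log2 fold change of the called probe sets was 1.45 for those higher in aerobic cultures and -1.76 for those higher in anaerobic cultures. The median over all tested genes was 0.00.

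Array 1 carried a large part of the aerobic count. Without it, 179 probe sets (2.95%) were higher in aerobic cultures and 192 (3.16%) in anaerobic cultures, and 168 of the 308 and 139 of the 175 were still called. Without array 2 the counts were 580 (9.56%) and 282 (4.65%). A total of 162 probe sets (2.67%) higher in aerobic cultures and 122 (2.01%) higher in anaerobic cultures were called in the full fit and whichever of the 4 arrays was left out. Counted by gene, the shares higher in aerobic and in anaerobic cultures were 3.25% and 2.94% without aerobic replicate 1, 10.6% and 3.74% without aerobic replicate 2, and 2.96% and 1.73% whichever array was left out.

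Among the 15 largest called differences in aerobic cultures were genes of respiration and of iron uptake. FET3, the oxidase of high-affinity iron uptake, had signals of 1494.6 and 1949.8 in aerobic cultures, against 35.1 and 34.9 in anaerobic cultures, a log2 fold change of 5.61 ± 0.23 (SE, limma, adjusted p = 7.64e-10). NDE1, the main NADH dehydrogenase on the outer face of the inner mitochondrial membrane, had 2445.7 and 1346.6 in aerobic cultures, against 48.3 and 57.8 in anaerobic cultures. HMX1, a heme oxygenase, had 452.3 and 514.5 in aerobic cultures, against 30.2 and 19.1 in anaerobic cultures. These 3 genes did not overlap between the groups, which their choice as the largest differences made likely, and they were called whichever array was left out. Both aerobic arrays lay above both anaerobic arrays for 23.3% of all genes. The next largest were CYC1, QCR10, CCC2, CYT1, COX4, COX5A, FTR1, PLN1, RIP1, SUE1, HAP4 and MPC3, with log2 fold changes of 4.32 down to 3.22. PLN1, a protein that coats lipid droplets, had 1650.6 and 1134.8 in aerobic cultures, against 131.9 and 118.6 in anaerobic cultures. SUE1, needed to degrade unstable forms of cytochrome c, had 265.8 and 55.0 in aerobic cultures and lay below the floor of 12 on both anaerobic arrays, so its difference is a lower bound. MPC3, a subunit of the mitochondrial pyruvate carrier, had 564.4 and 77.7 in aerobic cultures, against 19.3 and 26.3 in anaerobic cultures, and was not called without aerobic replicate 1 (log2 fold change 1.79, adjusted p = 0.12) or without anaerobic replicate 1 (adjusted p = 0.0684).

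The 15 largest called differences in anaerobic cultures were dominated by cell wall proteins, seripauperins and hypoxic isoforms. DAN1, a cell wall mannoprotein made without oxygen, had the largest value, -7.45 ± 2.11 (SE) on the log2 scale, but also the largest disagreement between aerobic arrays. Its signals were 4.7 and 159.6 in aerobic cultures, against 7989.6 and 7363.7 in anaerobic cultures. Without aerobic replicate 1 the DAN1 value was -5.59, and without anaerobic replicates 1 and 2 it was -7.39 and -7.51. DAN1 was not called in these fits. The SE and the calls rest on a spread estimated over all culture phases. The aerobic arrays also differed for DAN1 at the diauxic shift (7.1 and 359.1) and in late SP (1.4 and 930.1), but not in late exponential phase (11.2 and 12.1). The lost calls therefore do not reflect the mid-exponential arrays alone. ANB1, the hypoxic form of translation factor eIF5A, had 40.4 and 183.7 in aerobic cultures, against 9810.0 and 9358.7 in anaerobic cultures. TIR4, another wall mannoprotein, had 73.6 and 108.3 in aerobic cultures, against 7994.3 and 7209.6 in anaerobic cultures. For all 3 genes the lowest anaerobic signal was far above the highest aerobic one.

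HUG1, a small inhibitor of ribonucleotide reductase known from the response to DNA damage, was also among the leading genes. Its signals were 17.1 and 24.5 in aerobic cultures, against 942.2 and 734.2 in anaerobic cultures, a log2 fold change of -5.34 ± 0.45 (SE, adjusted p = 7.13e-07). HES1, an oxysterol-binding protein of sterol traffic, had 0.8 and 1.3 in aerobic cultures, below the floor, against 250.8 and 298.5 in anaerobic cultures. YPR145C-A, a short open reading frame, was likewise below the floor in aerobic cultures (6.3 and 9.0), against 199.2 and 260.9 in anaerobic cultures. HES1 and YPR145C-A were thus at least 22.8-fold and 19.0-fold higher in anaerobic cultures, measured against the floor. Of all called probe sets, 15 of those higher in anaerobic cultures and 13 of those higher in aerobic cultures had both arrays of the lower group at the floor.

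**Figure D2:**
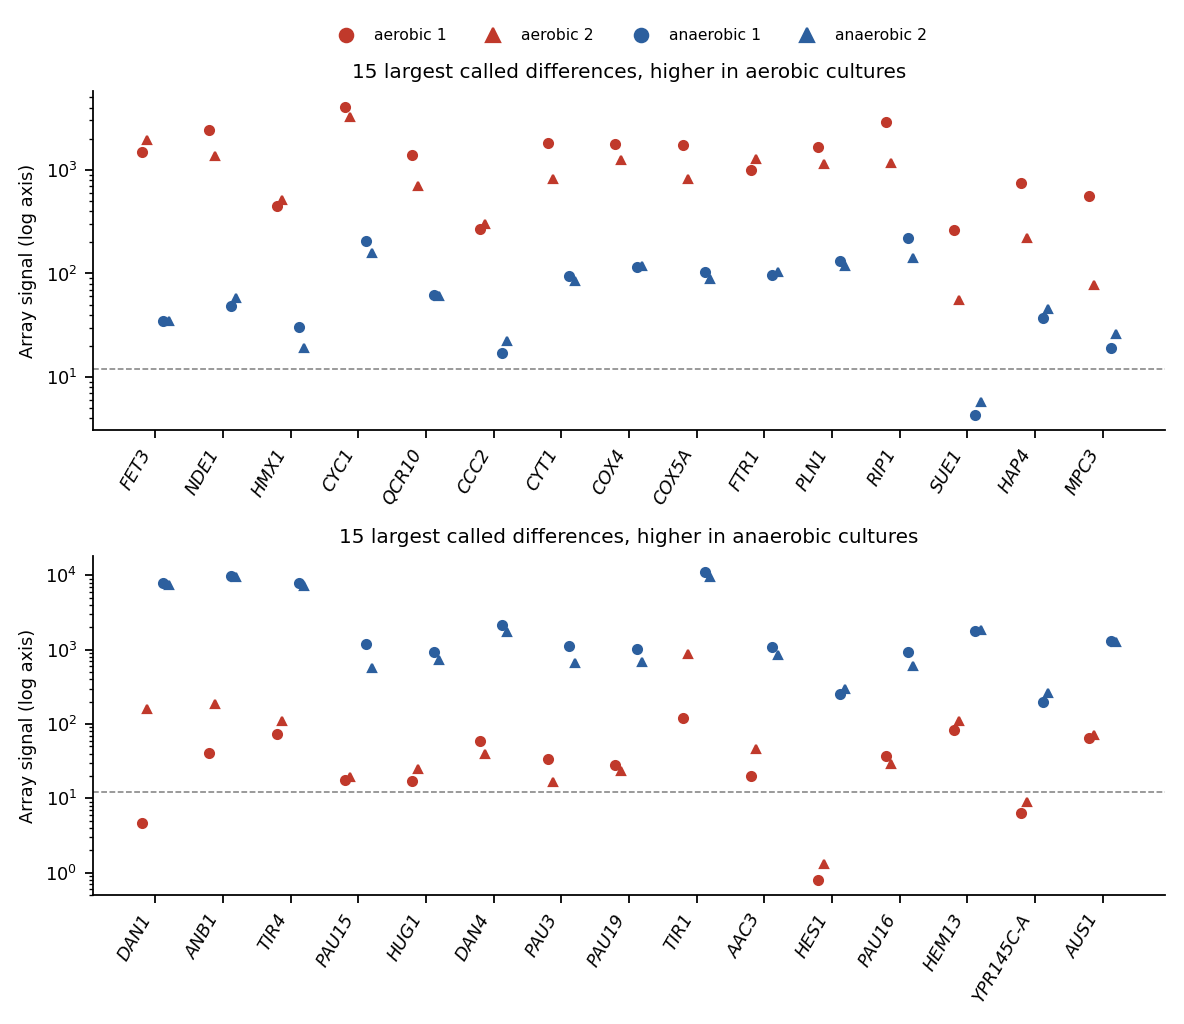
Array signal (log axis) of the 15 probe sets with the largest called difference in each direction, with aerobic arrays in red and anaerobic arrays in blue, circles for replicate 1 and triangles for replicate 2. The dashed line is the floor of 12. The groups do not overlap for any of them, though probe sets picked for the largest difference are likely to be separated. The aerobic arrays lie farthest apart for DAN1 (4.7 and 159.6).

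The respiratory chain was higher in aerobic cultures as a group, even on excess glucose. Of the 37 genes of complexes II to IV and ATP synthase, 34 were called higher in aerobic cultures and none higher in anaerobic cultures, with log2 fold changes of 1.24 to 4.01, and 31 of them were called whichever array was left out. The background over all genes is the 5.60% given above. COX5B, the hypoxic form of subunit 5 of cytochrome c oxidase, is not among the 37. It is counted with the hypoxic isoforms below and was called higher in anaerobic cultures (-1.26).

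All 8 cytochrome c oxidase subunits were called higher in aerobic cultures, and all 8 without aerobic replicate 1 as well. The 8 counted leave out COX5B and the subunits encoded in mitochondrial DNA. This enzyme passes electrons to oxygen. COX4 had signals of 1788.0 and 1241.2 in aerobic cultures, against 116.1 and 117.8 in anaerobic cultures, a log2 fold change of 3.67 ± 0.20 (SE, adjusted p = 6.4e-09). COX7 was higher on aerobic array 2, at 1432.8 and 1879.8 in aerobic cultures, against 244.1 and 259.7 in anaerobic cultures. COX9 differed least, with 1986.9 and 1457.6 in aerobic cultures, against 806.2 and 646.2 in anaerobic cultures (1.24 ± 0.22). The median of the 8 was 2.81, with 2.75 without aerobic replicate 1 and 3.13 without aerobic replicate 2. Single members moved more or less than this: COX5A had 3.10 and 4.18 in these 2 fits, and COX8 had 2.41 and 2.57.

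Complex III, which passes electrons from ubiquinol to cytochrome c, had 8 of 9 genes called higher in aerobic cultures, 7 without aerobic replicate 1. QCR10 had 1390.5 and 704.2 in aerobic cultures, against 62.4 and 60.6 in anaerobic cultures. CYT1, which encodes cytochrome c1, had 1825.4 and 815.1 in aerobic cultures, against 95.3 and 85.4 in anaerobic cultures. RIP1, the iron-sulfur subunit, had 2874.3 and 1177.9 in aerobic cultures, against 219.7 and 141.0 in anaerobic cultures. In each of these 3 genes array 1 was the higher aerobic array and both aerobic arrays were far above the anaerobic ones. COR1 was not called without aerobic replicate 1, and QCR8, with signals of 37.0 and 21.2 in aerobic cultures, against 8.6 and 7.9 in anaerobic cultures, was not called, with or without either aerobic array.

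ATP synthase had 14 of 16 genes called higher in aerobic cultures, and the same number without aerobic replicate 1. INH1, an inhibitor of its reverse reaction, led with 1478.3 and 640.1 in aerobic cultures, against 109.0 and 107.3 in anaerobic cultures. The catalytic subunits differed less: ATP1 had 2266.6 and 2082.7 in aerobic cultures, against 825.3 and 922.7 in anaerobic cultures (1.32 ± 0.19), and ATP2 had 1781.8 and 1340.5 in aerobic cultures, against 431.5 and 450.7 in anaerobic cultures (1.81 ± 0.21). The 2 members not called, STF1 and STF2, are both regulatory factors that were high on aerobic array 1 only, at 1747.6 and 407.1 for STF1 in aerobic cultures, against 341.7 and 292.5 in anaerobic cultures.

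Complex II, which joins the tricarboxylic acid (TCA) cycle to the chain, had all 4 genes called higher in aerobic cultures, but 2 without aerobic replicate 1. SDH2 had 2263.3 and 805.1 in aerobic cultures, against 318.5 and 289.5 in anaerobic cultures, and kept its call. SDH1 had 734.6 and 162.0 in aerobic cultures, against 99.7 and 102.4 in anaerobic cultures, and lost it, with a log2 fold change of 0.68 in place of 1.77, as it did without either anaerobic array. The aerobic arrays differed more for these genes than for cytochrome c oxidase, while both stayed above the anaerobic arrays.

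Among the other routes by which electrons enter the chain, NDI1, the internal NADH dehydrogenase, had 1070.8 and 302.2 in aerobic cultures, against 74.6 and 74.1 in anaerobic cultures (2.94 ± 0.40). GUT2, the mitochondrial glycerol 3-phosphate dehydrogenase, had 485.8 and 55.2 in aerobic cultures, against 30.8 and 37.8 in anaerobic cultures, and was called in no fit that left out an array other than aerobic replicate 2. NDE2, a second external NADH dehydrogenase, was near the floor in both groups. Of the TCA cycle, 3 of 12 genes were called higher in aerobic cultures, 1 without aerobic replicate 1 and 7 without aerobic replicate 2. The gene called in every fit was CIT1, citrate synthase, with 2297.7 and 1742.9 in aerobic cultures, against 609.5 and 707.5 in anaerobic cultures. Aconitase, ACO1, had 2093.3 and 1734.3 in aerobic cultures, against 1744.0 and 1806.8 in anaerobic cultures, and the 2 groups overlapped. Of 10 genes of ubiquinone synthesis, COQ2 alone was called, none without aerobic replicate 1 and 3 without aerobic replicate 2.

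The mitochondrial ribosome, which makes the chain subunits encoded in mitochondrial DNA, had small differences in one direction. All 67 genes tested had both aerobic arrays above both anaerobic arrays, against 23.3% of all genes. Their log2 fold changes were 0.62 to 1.83 with a median of 1.19, and 50 were called. The number called depended on the aerobic array, at 12 without replicate 1 and 61 without replicate 2, and the median without replicate 1 was 0.84. MRP4, of the small subunit, had 563.7 and 360.0 in aerobic cultures, against 108.6 and 147.2 in anaerobic cultures. MRPL23, of the large subunit, had 859.9 and 338.3 in aerobic cultures, against 172.4 and 157.5 in anaerobic cultures. By contrast none of the 75 cytosolic ribosomal protein genes with their own probe set was called, with a median of 0.08 (0.22 without aerobic replicate 1). None of 76 genes of ribosome biogenesis was called, with a median of -0.34. Without aerobic replicate 1, 1 of them was called higher in anaerobic cultures (median -0.03), and without aerobic replicate 2, 8 were (median -0.69).

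**Figure D3:**
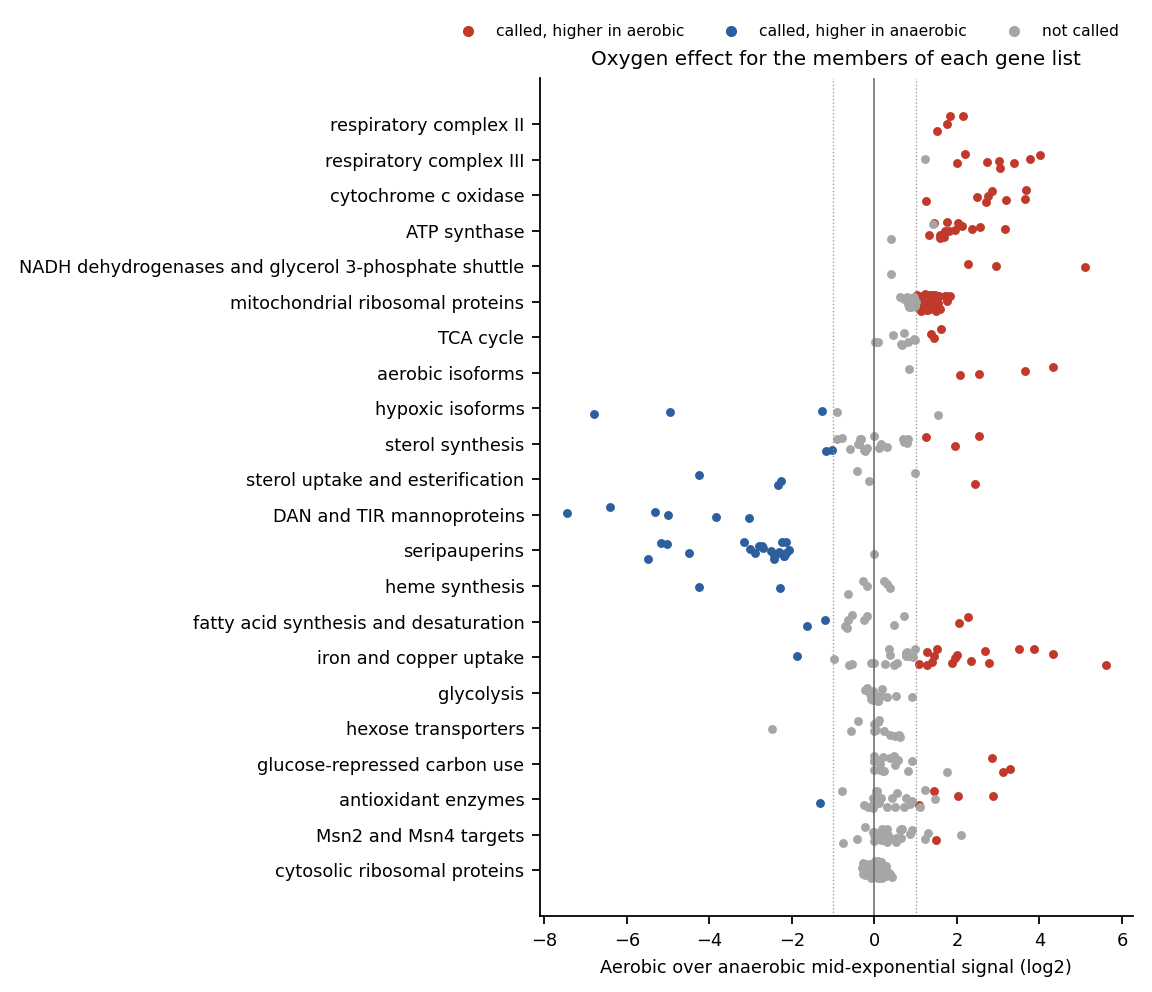
Log2 fold change (aerobic over anaerobic, mid-exponential phase) of each member of 22 gene lists, 1 point per gene or, for seripauperins, per probe set. Points are red where called higher in aerobic cultures, blue where called higher in anaerobic cultures and grey where not called, with dotted lines at 2-fold. The 8 cytochrome c oxidase genes are all red and the 6 DAN and TIR genes all blue, whereas glycolysis and the cytosolic ribosome have no called member.

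The paired isoforms were mostly, but not uniformly, switched. On the aerobic side CYC1, the main cytochrome c, had 4074.3 and 3218.5 in aerobic cultures, against 207.5 and 158.3 in anaerobic cultures (4.32 ± 0.25). COX5A, subunit 5 of cytochrome c oxidase, had 1743.8 and 820.8 in aerobic cultures, against 104.2 and 88.5 in anaerobic cultures. HMG1, an HMG-CoA reductase of the mevalonate pathway, had 2334.6 and 2572.3 in aerobic cultures, against 442.2 and 406.9 in anaerobic cultures. PET9, the main ADP/ATP carrier, had 2930.6 and 2404.3 in aerobic cultures, against 627.3 and 638.0 in anaerobic cultures. These 4 genes were called in every fit that left out an array. HYP2, the aerobic eIF5A, missed the 2-fold limit at 0.83 ± 0.26 (adjusted p = 0.0493), with 7800.6 and 11935.1 in aerobic cultures, against 6084.2 and 4866.3 in anaerobic cultures, and was called without aerobic replicate 1 (1.13, adjusted p = 0.0226).

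The hypoxic partners followed in 3 of 5 cases. ANB1, given above, and AAC3, the hypoxic ADP/ATP carrier, with 20.3 and 46.2 in aerobic cultures, against 1077.0 and 842.7 in anaerobic cultures, were called in every fit. COX5B was called at -1.26 ± 0.31, with 31.7 and 8.3 in aerobic cultures, against 49.0 and 44.3 in anaerobic cultures, but only without aerobic replicate 1 did it keep the call, not in the fits that left out 1 of the other 3 arrays. HMG2 had 303.9 and 228.3 in aerobic cultures, against 579.4 and 417.3 in anaerobic cultures, and fell just short of 2-fold (-0.90). It was called without aerobic replicate 1 and without anaerobic replicate 2. CYC7, the hypoxic cytochrome c, was not higher in anaerobic cultures: its signals were 86.5 and 15.8 in aerobic cultures, against 10.5 and 13.3 in anaerobic cultures, close to the floor on all but aerobic array 1, and it was called higher in aerobic cultures without aerobic replicate 2.

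Of the 15 regulators of the oxygen, heme and sterol responses, 2 were called higher in aerobic cultures and 3 higher in anaerobic cultures. The shares over all genes were 5.60% and 2.41%. HAP4, the limiting subunit of the Hap complex, which glucose represses, had 742.8 and 219.4 in aerobic cultures, against 37.3 and 45.8 in anaerobic cultures. ROX1, the repressor of hypoxic genes, had 57.0 and 70 in aerobic cultures, against 11.9 and 8.7 in anaerobic cultures. UPC2, which activates sterol and anaerobic genes, had 14.6 and 25 in aerobic cultures, against 173.8 and 199.4 in anaerobic cultures. MGA2, an activator of the desaturase OLE1, had 22.3 and 13.6 in aerobic cultures, against 52.9 and 61.2 in anaerobic cultures. SUT1, which promotes sterol uptake, had 56.6 and 45.6 in aerobic cultures, against 126.2 and 126.4 in anaerobic cultures. All 5 held in every fit that left out an array.

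The 3 probe sets listed for HAP1 were all lower in aerobic cultures, but not all of them were called. They had log2 fold changes of -1.83, -1.29 and -1.07, of which the first 2 were called and the third was not (adjusted p = 0.0539). The first had 76.2 and 68.0 in aerobic cultures, against 228.9 and 285.6 in anaerobic cultures. The other 2 carry a suffix that marks probes shared within a gene family, gave higher signals, and differed between the aerobic arrays, at 261.2 and 725.7 for the brightest. The counts of regulators use that brightest probe set, so HAP1 is not among the called genes there. By the probe set without the suffix (-1.83), HAP1 would be called higher in anaerobic cultures. In late SP the probe set without that suffix was called higher in aerobic cultures, at 2.21. The other 2 were not called then (-0.33 and -0.38). The remaining regulators, among them HAP2, HAP3, HAP5, TUP1, CYC8, MOT3, IXR1, ECM22 and SPT23, were not called. ECM22 (-0.85) was called higher in anaerobic cultures without aerobic replicate 1.

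The anaerobic cell wall genes were the most strongly changed group. Yeast replaces the wall mannoproteins Cwp1 and Cwp2 with the Dan and Tir proteins when oxygen is absent. All 6 DAN and TIR genes were called higher in anaerobic cultures, with a median of -5.15. DAN4 had 59.1 and 39.5 in aerobic cultures, against 2127.5 and 1731.2 in anaerobic cultures. TIR1 had 120.6 and 862.7 in aerobic cultures, against 11256.3 and 9361.6 in anaerobic cultures, and TIR3 had 523.3 and 540.7 in aerobic cultures, against 8460.6 and 6834.2 in anaerobic cultures. The count was 4, without DAN1 and TIR1, when aerobic replicate 1 or either anaerobic array was left out. The TIR1 value was -3.57 without aerobic replicate 1, and -4.86 and -5.13 without anaerobic replicates 1 and 2. As for DAN1, the spread behind these calls covers all culture phases. The aerobic arrays also differed for TIR1 in post-diauxic growth (62.1 and 1371.5), but little in late exponential phase (118.9 and 130.4). TIR2, the least changed, had 241.9 and 327.4 in aerobic cultures, against 2582.9 and 2033.2 in anaerobic cultures. On the opposite side CWP2 had 5928.5 and 5805.1 in aerobic cultures, against 1622.0 and 1521.0 in anaerobic cultures (1.90 ± 0.23). CWP1 had 359.4 and 266.1 in aerobic cultures, against 160.4 and 136.2 in anaerobic cultures, and was not called without aerobic replicate 1 or without anaerobic replicate 2.

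The seripauperins (PAU genes), a large subtelomeric family of near-identical wall proteins, rose together in anaerobic cultures. They were counted by probe set because 12 of the 22 probe sets match several family members, and cross-hybridisation means that no value belongs to 1 gene with certainty. Of the 22, 21 were called higher in anaerobic cultures, against 2.88% of all probe sets, and the same number was called without any 1 of the 4 arrays. Their log2 fold changes ran from -2.07 to -5.48, with a median of -2.51 over the 21. Signals of the 21 were 16.8 to 219.3 in aerobic cultures and 118.6 to 1348.2 in anaerobic cultures. The probe sets listed for PAU15, PAU3, PAU19 and PAU16 had the largest differences, with 17.9 and 19.3 in aerobic cultures, against 1199.4 and 573.3 in anaerobic cultures for PAU15. The 22nd probe set was below the floor on all 4 arrays.

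Sterol uptake and sterol synthesis did not move alike. Of the 7 genes of uptake and esterification, 3 were higher in anaerobic cultures and 1 in aerobic cultures, against 2.41% and 5.60% of all genes. The importers AUS1 and PDR11 had 64.6 and 72.0 in aerobic cultures, against 1320.9 and 1260.6 in anaerobic cultures, for AUS1, and 28.5 and 34.7 in aerobic cultures, against 161.6 and 154.8 in anaerobic cultures, for PDR11. The esterifying enzymes went in opposite directions. ARE1 had 151.3 and 192.0 in aerobic cultures, against 920.3 and 711.4 in anaerobic cultures (-2.25 ± 0.23). ARE2 had 133.3 and 94.7 in aerobic cultures, against 16 and 27.1 in anaerobic cultures (2.43 ± 0.25). AUS1 has 6 probe sets, all with negative values, of which 5 were called.

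Of 25 genes of sterol synthesis, 3 were called higher in aerobic cultures and 2 higher in anaerobic cultures, against 5.60% and 2.41% of all genes. The median of the 25 was -0.19. Besides HMG1, those higher in aerobic cultures were ERG5, a late desaturase of ergosterol synthesis, with 474.9 and 415.5 in aerobic cultures, against 107.1 and 121.8 in anaerobic cultures, and IDI1, which was not called without aerobic replicate 1 or without anaerobic replicate 1. The 2 higher in anaerobic cultures were ERG1, squalene epoxidase, with 577.1 and 701.2 in aerobic cultures, against 1452.7 and 1389.3 in anaerobic cultures, and ERG24, with 347.7 and 350.1 in aerobic cultures, against 697.6 and 723.5 in anaerobic cultures. Both lay close to the 2-fold limit, at -1.16 and -1.03, and neither was called in every fit that left out an array. ERG11, the cytochrome P450 of the pathway, had 3481.9 and 4086.5 in aerobic cultures, against 5988.7 and 5369.5 in anaerobic cultures, and did not pass the test (adjusted p = 0.315). ERG3, another oxygen-using desaturase, had 3072.5 and 3175.8 in aerobic cultures, against 3319.5 and 2943.6 in anaerobic cultures, with overlapping groups.

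In heme synthesis the 2 oxygen-using steps stood out from the rest. HEM13, which encodes coproporphyrinogen oxidase, had 82.1 and 110.8 in aerobic cultures, against 1804.4 and 1838.8 in anaerobic cultures (-4.26 ± 0.39). HEM14, the next enzyme of the pathway, had 126.4 and 87.2 in aerobic cultures, against 510.7 and 517.5 in anaerobic cultures (-2.29 ± 0.18). The other 6 genes had values between -0.63 and 0.39 and none was called. In fatty acid metabolism 2 of 12 genes were called in each direction, against 5.60% of all genes higher in aerobic and 2.41% in anaerobic cultures. The acyl-CoA synthetases FAA1 and FAA4 went opposite ways: FAA1 had 109.4 and 158.7 in aerobic cultures, against 28.0 and 27.2 in anaerobic cultures, and FAA4 had 184.9 and 213.9 in aerobic cultures, against 431.7 and 486.5 in anaerobic cultures. ELO1, an elongase, was higher in aerobic cultures (2.05 ± 0.20) and SUR2, a hydroxylase of sphingolipid synthesis, higher in anaerobic cultures (-1.62 ± 0.23). OLE1, the desaturase that uses oxygen, had 1564.1 and 2384.6 in aerobic cultures, against 2719.0 and 2872.9 in anaerobic cultures, and was not called (adjusted p = 0.0979).

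Genes of iron and copper uptake formed the other large aerobic group. Of 34 genes tested, 16 were called higher in aerobic cultures and 1 higher in anaerobic cultures, and 14 and 2 without aerobic replicate 1. The shares over all genes in the full fit were 5.60% and 2.41%. For FET3 and its partner permease FTR1 the higher aerobic signal was on array 2, unlike most respiratory genes. FTR1 had 990.8 and 1278.8 in aerobic cultures, against 96.1 and 102.8 in anaerobic cultures. CCC2, which loads copper onto Fet3, had 270.0 and 297.4 in aerobic cultures, against 17.1 and 22.2 in anaerobic cultures. AFT1, the activator of the iron regulon, had 102.0 and 148.5 in aerobic cultures, against 45.3 and 40.5 in anaerobic cultures (1.52 ± 0.24).

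Some genes of siderophore uptake and iron sparing were called in the same direction. ENB1, an enterobactin transporter, had 1601.9 and 2131.4 in aerobic cultures, against 430.0 and 303.7 in anaerobic cultures. FIT2, a wall protein that retains siderophore iron, had 145.3 and 152.7 in aerobic cultures, against 20.6 and 22.7 in anaerobic cultures. TIS11, which destabilises mRNAs of iron-using proteins, had 74.5 and 79.8 in aerobic cultures and was below the floor in anaerobic cultures. The vacuolar pair FTH1 and FET5, the reductases FRE1 and FRE2, ARN1, the copper transporters CTR1 and CTR3 and the manganese transporter SMF1 were called as well, of which FRE2, FET5, CTR1, CTR3 and SMF1 were not called without aerobic replicate 1, and FRE2, CTR3 and SMF1 not without anaerobic replicate 1 either. The 1 member higher in anaerobic cultures was FET4, the low-affinity transporter, which works without Fet3, with 46.4 and 65.4 in aerobic cultures, against 226.4 and 178.8 in anaerobic cultures (-1.87 ± 0.25). ZRT1, a zinc transporter, had 144.5 and 72.1 in aerobic cultures, against 218.1 and 185.2 in anaerobic cultures, and was called higher in anaerobic cultures without aerobic replicate 1 and without anaerobic replicate 2.

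None of 16 glycolytic genes was called, with a median of 0.08 (0.01 without aerobic replicate 1). Without aerobic replicate 2, 2 were called higher in aerobic cultures: HXK1 (3.17, adjusted p = 0.00209) and the glucokinase GLK1 (2.12, adjusted p = 0.00323), whose aerobic arrays differed widely. PGI1, for example, had 4943.4 and 4834.6 in aerobic cultures, against 5150.7 and 4834.3 in anaerobic cultures, and CDC19, the main pyruvate kinase, had 9297.3 and 10975.5 in aerobic cultures, against 9562.3 and 9108.0 in anaerobic cultures. Of 12 genes of alcoholic fermentation, only ADH5, a minor alcohol dehydrogenase, was called, with 455.5 and 389.3 in aerobic cultures, against 964.8 and 902.8 in anaerobic cultures. PDC1 and ADH1, the main enzymes from pyruvate to ethanol, had overlapping groups or differences of at most 0.14 on the log2 scale.

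Outlets for surplus NADH changed in a few members. GPD2, the glycerol 3-phosphate dehydrogenase linked to anaerobic growth, had 19.6 and 30.8 in aerobic cultures, against 59.3 and 59.4 in anaerobic cultures (-1.27 ± 0.25), and was not called without aerobic replicate 1. Its osmotic-stress counterpart GPD1 had 1315.7 and 898.8 in aerobic cultures, against 1249.9 and 968.7 in anaerobic cultures. FRD1, a soluble fumarate reductase, had 454.1 and 391.6 in aerobic cultures, against 1882.4 and 1627.6 in anaerobic cultures (-2.05 ± 0.19). EUG1, a disulfide isomerase of the endoplasmic reticulum, had 103.2 and 84.0 in aerobic cultures, against 447.2 and 427.6 in anaerobic cultures. The second fumarate reductase gene, OSM1, and the oxidases ERO1 and ERV2 had values between -0.64 and -0.44 and were not called.

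Glucose-responsive groups gave different answers on the 2 aerobic arrays. In the full fit, 5.60% of all genes were called higher in aerobic and 2.41% in anaerobic cultures. None of 13 hexose transporters and sensors was called, although HXT1 had a log2 fold change of -2.48 ± 0.97 (SE, adjusted p = 0.126), which was 0.06 without aerobic replicate 1. Without aerobic replicate 2, 3 of them were called higher in aerobic cultures and 1 higher in anaerobic cultures. Of 20 glucose-repressed genes of carbon use, 3 were called higher in aerobic cultures, in the full fit and without aerobic replicate 1. Besides HAP4 these were CYB2, L-lactate cytochrome c oxidoreductase, with 963.3 and 135.8 in aerobic cultures, against 35.9 and 47.9 in anaerobic cultures, and DLD1, D-lactate dehydrogenase, with 2642.1 and 2051.2 in aerobic cultures, against 372.9 and 276.0 in anaerobic cultures. Without aerobic replicate 2, 8 were called. Genes of gluconeogenesis and the glyoxylate cycle stayed low in both groups: FBP1 and MLS1 were below the floor on all 4 arrays, and PCK1 had 33.8 and 29.2 in aerobic cultures, against 27.0 and 30.7 in anaerobic cultures. None of 20 genes of fatty acid beta-oxidation was called, and 3 were called higher in aerobic cultures without aerobic replicate 2.

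Defence genes showed a mixed pattern. Of 33 antioxidant enzymes, 4 were called higher in aerobic cultures and 1 higher in anaerobic cultures, against 5.60% and 2.41% of all genes. Those higher in aerobic cultures were 5 without aerobic replicate 1, 7 without aerobic replicate 2, and 3 whichever array was left out. SOD2, the mitochondrial superoxide dismutase, had 1260.0 and 591.2 in aerobic cultures, against 127.1 and 108.5 in anaerobic cultures (2.88 ± 0.30). SOD1, its cytosolic counterpart, had 3727.8 and 3726.9 in aerobic cultures, against 1357.4 and 1370.5 in anaerobic cultures. TSA1, the main cytosolic peroxiredoxin, had 6178.8 and 6286.8 in aerobic cultures, against 3149.9 and 2733.2 in anaerobic cultures, and the glutaredoxin GRX2 had 835.5 and 349.9 in aerobic cultures, against 138.4 and 127.0 in anaerobic cultures. TSA2, a near copy of TSA1, went the other way, with 36.9 and 32.4 in aerobic cultures, against 98.8 and 74.9 in anaerobic cultures (-1.31 ± 0.19).

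Stress genes were set by the aerobic array. Of 30 targets of the general stress activators Msn2 and Msn4, HOR7 was the 1 gene called, with 7514.9 and 4451.2 in aerobic cultures, against 2246.9 and 1856.4 in anaerobic cultures. The list's median was 0.30, -0.46 without aerobic replicate 1, and 16 genes were called higher in aerobic cultures without aerobic replicate 2. TSL1, of trehalose synthesis, shows the split, with 628.2 and 53.3 in aerobic cultures, against 73.6 and 75.4 in anaerobic cultures. Of 30 heat-shock proteins and chaperones, 1 was called, and 5 without aerobic replicate 2. It was HSP31, with 1699.8 and 1632.2 in aerobic cultures, against 797.1 and 630.8 in anaerobic cultures. HSP12, a small membrane-associated stress protein, had 528.6 and 402.4 in aerobic cultures, against 710.8 and 875.6 in anaerobic cultures, a difference below 2-fold (-0.77, adjusted p = 0.0317). HSP104, HSP26 and SSA3 were not called, but without aerobic replicate 2 HSP104 (1.08, adjusted p = 0.0243) and HSP26 (1.65, adjusted p = 0.0014) were called higher in aerobic cultures. LIA1, deoxyhypusine hydroxylase, which modifies eIF5A, had 921.4 and 1528.7 in aerobic cultures, against 3784.2 and 3617.1 in anaerobic cultures (-1.64 ± 0.27, adjusted p = 0.000571).

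Biosynthetic groups were close to background, which was 5.60% of all genes higher in aerobic and 2.41% in anaerobic cultures. None of 65 genes of amino acid synthesis, 13 of thiamine and pyridoxine metabolism and 13 of phosphate uptake was called, and none of the 6 housekeeping genes (median 0.06). Of 32 genes of methionine and sulfate assimilation the cysteine transporter YCT1 was called, with 165.3 and 113.6 in aerobic cultures, against 45.8 and 52.8 in anaerobic cultures. Of 14 genes of NAD synthesis, which needs oxygen when it starts from tryptophan, BNA4 and BNA1 were called higher in aerobic cultures. BNA4, kynurenine hydroxylase, had 883.1 and 558.3 in aerobic cultures, against 240.4 and 230.9 in anaerobic cultures, and BNA1 was not called without aerobic replicate 1. Of 5 biotin genes, the transporter VHT1 was called higher in aerobic cultures, with 271.0 and 494.0 in aerobic cultures, against 195.7 and 151.5 in anaerobic cultures, but not without aerobic replicate 2 or without anaerobic replicate 2.

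Most calls were also made one time point later, on different arrays. In late exponential phase 549 probe sets (9.05%) were called, 367 higher in aerobic cultures and 182 higher in anaerobic cultures. Of the 308 and 175 probe sets called in mid-exponential phase, 262 and 140 were called in the same direction in late exponential phase and none in the opposite one. These are 262 of the 367 and 140 of the 182 later calls. A test of the difference between both time points called 1 probe set (0.0165%), which is listed for PAU13, with a log2 fold change of -2.24 in mid-exponential and -5.00 in late exponential phase. The count of this test was 16 without aerobic mid-exponential replicate 1. Per the methods the same cultures were sampled over time, so the time points share cultures, and aerobic mid-exponential replicate 1 resembled the aerobic late exponential arrays (above). For each of the 21 called seripauperin probe sets the fitted value was more negative in late exponential phase, with a median of -4.19 against -2.51, but no other one of them passed the test of the difference.

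By late SP, when the cultures no longer grew, much of the mid-exponential pattern was gone. Of the 308 probe sets higher in aerobic cultures, 75 were higher there in late SP too, 73 were higher in anaerobic cultures and 160 were not called, while 1106 probe sets (18.2%) were higher in aerobic and 779 (12.8%) higher in anaerobic cultures in all. Of the 175 higher in anaerobic cultures, 80 were called again and 18 in the opposite direction. The change of the aerobic minus anaerobic difference between mid-exponential phase and late SP was itself called for 2020 probe sets (33.3%).

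The respiratory chain lost its difference. Of the 37 genes counted, 3 were still higher in aerobic cultures in late SP. At that time 18.6% of all genes were higher in aerobic and 12.8% in anaerobic cultures. The difference between the time points was called for 31 of the 37. COX4 had a log2 fold change of 3.67 in mid-exponential phase and -0.01 in late SP. Its geometric mean signal was 1490 in mid-exponential and 1680 in late SP aerobic cultures, and 117 in mid-exponential and 1690 in late SP anaerobic cultures, so the larger change over time was in the anaerobic cultures. For the mitochondrial ribosome, 33 of 67 genes were higher in anaerobic cultures in late SP, 27 of them among the 50 called higher in aerobic cultures during growth, and the difference between the time points was called for 61.

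Of the 16 iron and copper genes called higher in aerobic cultures, 11 were called again in late SP, and of the 6 DAN and TIR genes 5 were, TIR2 (-0.65) being the exception. In late SP 18.6% of all genes were higher in aerobic and 12.8% in anaerobic cultures. CWP1 and CWP2 were not called in late SP (0.72 and 0.91). Several of these differences were smaller than during growth: DAN4 had -1.35 and TIR4 -3.93 in late SP. FET3 had log2 fold changes of 5.61 in mid-exponential phase and 5.19 in late SP, and HMX1 of 4.33 and 6.43. All 21 seripauperin probe sets were called higher in anaerobic cultures in late SP. HEM13 and AUS1 stayed called, at -3.02 and -4.63. SUT1 and FAA4 changed sides, with log2 fold changes of -1.31 and -1.20 in mid-exponential phase and 2.09 and 2.46 in late SP.

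**Figure D4:**
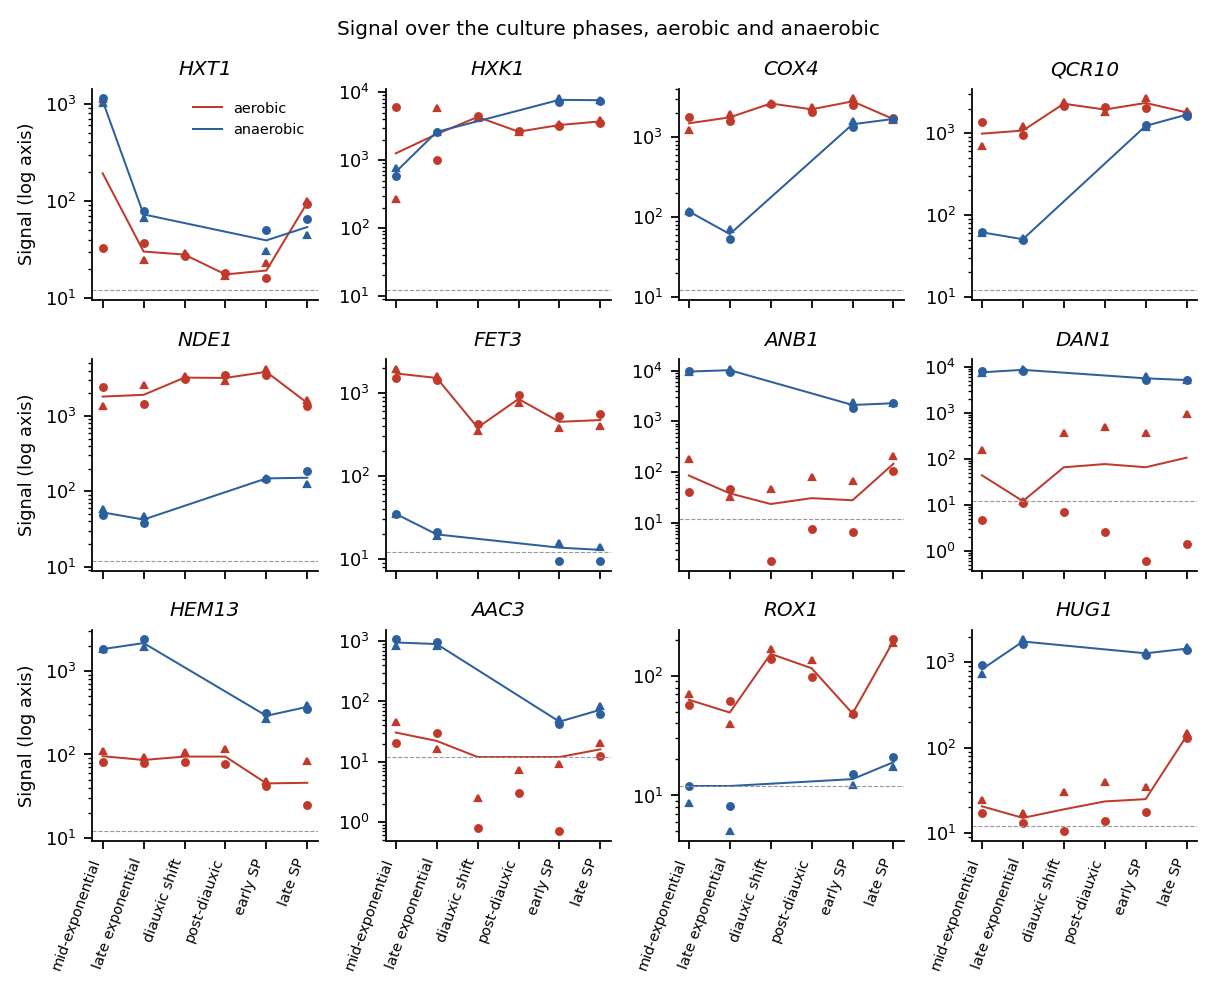
Array signal (log axis) of 12 genes over the culture phases in aerobic (red, 6 phases) and anaerobic (blue, 4 phases) cultures, with circles for replicate 1, triangles for replicate 2 and lines through the geometric means of signals floored at 12. COX4 and QCR10 start apart and meet in SP, whereas FET3 stays apart, and HXT1 and HXK1 show aerobic mid-exponential replicate 1 far from replicate 2.

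Features outside protein-coding genes were tested apart. Of 1408 tested, 20 (1.42%) were higher in aerobic cultures and 31 (2.20%) in anaerobic cultures, and 49 of these 51 are not listed in the annotation. The other 2 are SNR69, a small nucleolar RNA, with 63.0 and 77.8 in aerobic cultures, against 11.9 and 19.3 in anaerobic cultures, and SUP19, a transfer RNA gene. The largest difference was that of a feature with no listed gene, with 1778.7 and 410.1 in aerobic cultures, against 91.5 and 96.0 in anaerobic cultures.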

How the data were processed

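RNA of 20 batch-culture samples was measured on 1-colour Affymetrix YG-S98 arrays, 2 arrays in each of 10 groups. The values deposited by the authors are linear signal intensities per probe set, scaled by the authors to a common average (after trimming 2% at each end, the mean is 240.2 or 240.3 on every array); the expression algorithm is not given in the sources used here. Signals under 12 were set to 12, and of 6647 protein-coding features the 580 that stayed under 20 on every array were left out, which left 6067 probe sets. A linear model with a mean for each of the 10 groups was fitted to the log2 signals of all 20 arrays (limma 3.58.1, R 4.3.3), so the spread was estimated jointly with 10 residual degrees of freedom. P-values were adjusted by the Benjamini-Hochberg method over all probe sets tested. A log2 fold change is the aerobic minus the anaerobic mean, on floored signals, and understates changes of dim transcripts. Tables were handled in Python 3.11.15 with pandas 2.3.3, and figures drawn with matplotlib 3.10.9.

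A gene with several probe sets was represented by the brightest. Names came from the platform's annotation, which pairs 6504 features with 1 symbol, 328 with several and does not list 2503. Named were the 15 largest called differences per direction, members of 41 gene lists (all of lists of up to 12, the 6 largest of longer ones), isoform pairs and genes the study names for this phase; the other genes given as examples were chosen after their values were seen. The lists and the comparison were chosen with earlier results of these data known. With 2 arrays per group, their number limits the precision. The same number in aerobic and anaerobic groups did not mark paired samples (the deviations of the mid-exponential arrays numbered 1 correlated at r = 0.0547). Alternatives changed the floor, filter, scaling, fold rule, arrays and blocks. The script was tested on simulated data.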

Additional observations from a re-analysis of the deposited data

Results flagged for a closer look

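The results listed here are those of the leading genes and gene lists for which a test of the difference itself (limma, adjusted over all probe sets) found that the aerobic minus anaerobic difference was not the same at a later time point. Between late and mid-exponential phase the probe set listed for PAU13 differed by -2.76 ± 0.34 (SE, log2, adjusted p = 0.0045).

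Between late SP and mid-exponential phase, adjusted p of the leading probe sets listed here ran from 1.45e-07 for HES1 to 0.0404 for PLN1. Among genes higher in aerobic cultures during growth, the difference was smaller or turned in late SP for HAP4 by -4.42, QCR10 by -3.91, COX4 by -3.68, RIP1 by -3.55, CYT1 by -3.36, COX5A by -2.27, NDE1 by -1.81, CCC2 by -1.14 and PLN1 by -0.87 on the log2 scale. It was larger for SUE1, by 3.84, and HMX1, by 2.10. SUE1 was below the floor in anaerobic mid-exponential cultures.

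Among genes higher in anaerobic cultures during growth, the difference came closer to 0 for DAN4 by 3.96, HES1 by 2.85, AAC3 by 2.78, TIR4 by 2.48, PAU15 by 2.06, HUG1 by 1.95, PAU3 by 1.49, PAU19 by 1.40 and PAU16 by 1.15. All of these were still called higher in anaerobic cultures in late SP. HES1 was below the floor in aerobic mid-exponential cultures, so its value depends on the floor.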

How the results depend on the processing

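No named probe set changed direction as a called result over the 19 settings run. Fitted on the 4 mid-exponential arrays alone, 10 probe sets were higher in aerobic and 17 in anaerobic cultures, and 7 and 3 list members were called; the full fit takes its spread from 20 arrays. With no fold threshold there were 467 and 282. Leaving out 1 mid-exponential array gave 179 to 580 probe sets higher in aerobic and 144 to 282 higher in anaerobic cultures, and 84 to 191 and 46 to 59 list members, against 131 and 49. The lowest aerobic counts came without aerobic replicate 1 and the highest without aerobic replicate 2. For features outside protein-coding genes these ranges were 13 to 43 and 6 to 78. They were 19 and 16 without aerobic replicate 1, against 20 and 31. For 1 probe set the aerobic minus anaerobic difference was not the same in late and mid-exponential phase. This count became 6 with a floor of 30, and 8 with a replicate block for each culture within aerobic and anaerobic cultures. It also moved when an array was left out. With the replicate block by culture number, the mid-exponential counts were 306 and 170. With each culture as a replicate block within its own oxygen condition, 303 probe sets were higher in aerobic and 171 in anaerobic cultures. Since deviations of the aerobic mid- and late exponential arrays of the same number correlated at -0.555, a replicate block with the aerobic numbers crossed in late exponential phase was added after seeing the data, and gave 316 and 177. The other floors, filters, scalings, fold rules and feature sets gave 263 to 326 and 138 to 214. Dim transcripts limit what can be seen: on the 4 arrays 2725 to 2822 features were below the floor.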

Other observations

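Several groups outside the lists were noticed among the called genes. They were chosen after their values were seen, so their counts are descriptions without a test. Over all tested genes, 5.60% were called higher in aerobic and 2.41% higher in anaerobic cultures. The 8 assembly factors of cytochrome c oxidase counted here were all called higher in aerobic cultures. They are not all such factors (SCO1 and COX18, for example, were not counted), so 8 of 8 is not a share of the class. Without aerobic replicate 1 their log2 fold changes ran from 0.66 for SHY1 to 2.35 for COA2. Of 6 genes of the complex that shapes the inner mitochondrial membrane (MICOS), 5 were called higher in aerobic cultures, 4 without aerobic replicate 1, among them MIC27, with 280.7 and 155.6 in aerobic cultures, against 42.2 and 39.5 in anaerobic cultures. Of 6 genes of eisosomes, furrows of the plasma membrane, 4 were called, with or without aerobic replicate 1, and NCE102 had 3114.6 and 2719.2 in aerobic cultures, against 485.0 and 478.6 in anaerobic cultures.

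Higher in anaerobic cultures were 4 of 8 genes of ribonucleotide reductase and its control, namely HUG1, DIF1 (-1.75), RNR3 (-1.43) and RNR2 (-1.10). Both alcohol acetyltransferases, which make acetate esters, were called as well: ATF2 had 131.9 and 189.2 in aerobic cultures, against 1134.6 and 886.5 in anaerobic cultures, and ATF1 had a log2 fold change of -1.90. Of 24 probe sets for the Ty4 retrotransposon, 10 were called higher in anaerobic cultures, and since the copies are near-identical they are not independent.

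DAN1 differed between the aerobic cultures at other time points too. On the aerobic arrays numbered 1 and 2 its signals were 4.7 and 159.6 in mid-exponential phase, 11.2 and 12.1 in late exponential phase, 7.1 and 359.1 at the diauxic shift, 2.6 and 493.5 in post-diauxic growth, 0.6 and 359.3 in early SP and 1.4 and 930.1 in late SP. TIR1 was likewise higher on the arrays numbered 2, at 62.1 and 1371.5 in post-diauxic growth and 118.9 and 130.4 in late exponential phase. The cause was not tested.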
